A study of Mus musculus with 16 samples.

Results

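A group of 10 genes of fatty acid synthesis and lipid storage was followed from the early embryo to the pancreatic islet of the offspring: Srebf1, Thrsp, Acly, Acaca, Fasn, Elovl6, Scd1, Scd2, Plin2 and Cidea. They were picked by gene symbol as members of the pathway, with earlier results of these data known, and all 10 were listed in each of the 10 expression tables, among 24486 entries in islets and 23966 symbols in embryos. The series asks whether small RNA of sperm carries an acquired metabolic disorder to the offspring, and it holds 16 samples, of which the 4 embryo and 6 islet libraries hold mRNA and were used here. Male C57BL/6J mice, 5 weeks old when bought, were fed a normal diet (ND) or the high-fat diet D12492 (HFD). From the sperm of each group of males, RNA 30 to 40 nt long was isolated and microinjected at 2 ng/µl into fertilised eggs of ICR, an outbred mouse stock, from superovulated donors of 6 weeks. Every embryo and animal described here thus received sperm RNA, and HFD or ND names the diet of the sperm donors, not of the embryo or animal itself. No library of water-injected embryos was analysed here.

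Embryos cultured in vitro were collected at the 8-cell stage (about 56 h after injection) and as late blastocysts (about 75 h). Each embryo group was 1 pool of 5 embryos, so that 8-cell ND, 8-cell HFD, blastocyst ND and blastocyst HFD each had 1 library, made by Smart-Seq2. Islets, the clusters of hormone cells in the pancreas, were isolated from F1 offspring after 6 h of fasting, with 3 stranded mRNA libraries after ND RNA and 3 after HFD RNA. The age of the offspring and whether each islet library came from its own animal are not given in the sources used here, so p-values in islets measure the spread between these libraries, which may be technical. All values are FPKM, fragments per kilobase of transcript and per unit of library depth, a level per length of transcript.

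Cells that make fat from sugar export citrate from the mitochondrion and split it to acetyl-CoA (Acly), carboxylate it to malonyl-CoA (Acaca) and join these units into palmitate (Fasn), which is then lengthened (Elovl6) and given a double bond (Scd1, Scd2). Srebf1 encodes SREBP-1, a membrane-bound transcription factor that activates these enzyme genes once it is released by cleavage, and Thrsp encodes Spot 14, a protein of fat-making tissues that is induced together with them. Finished fat is stored in lipid droplets, which Plin2 coats in most tissues and on which Cidea, best known from brown fat, promotes the fusion of droplets.

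Of the 10 genes, 7 had a promoter window in the RefSeq table used (build GRCm38.p6), from 250 bases before to 50 after the annotated start. The 100 bases before the start are printed 5′ to 3′ along the gene for Thrsp and Plin2, whose levels differed most between embryo pools among those with a window, and for Fasn, whose islet groups stayed apart under both scalings used below. Capitals mark CCAAT, the box bound by NF-Y, on either strand (as ATTGG where it lies on the other strand). All 3 genes lie on the minus strand, at chr11:120824548-120824647 (Fasn), chr7:97417551-97417650 (Thrsp) and chr4:86670060-86670159 (Plin2).
Fasn: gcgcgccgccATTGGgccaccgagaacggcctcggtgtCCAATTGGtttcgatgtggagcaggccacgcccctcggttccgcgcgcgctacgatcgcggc
Thrsp: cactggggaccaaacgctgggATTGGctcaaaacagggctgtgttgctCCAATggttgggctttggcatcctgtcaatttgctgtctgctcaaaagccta
Plin2: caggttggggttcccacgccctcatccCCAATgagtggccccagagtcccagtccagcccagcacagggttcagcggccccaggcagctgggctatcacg
The Fasn window holds 3 such boxes, 2 of them overlapping as CCAATTGG, the Thrsp window 2 on opposite strands, and the Plin2 window 1. Over the full windows of both strands, CCAAT was found in 6 of the 9 windows of these genes (Acly, Fasn, Plin2, Thrsp and 2 of the 3 of Srebf1), against 37.4% of all 32851 windows. GGGCGG, the Sp1 box, was found in 4 windows (Acly, Plin2 and 2 of Srebf1) against 35.7% of windows, and CACGTG, the palindromic E-box, in 1 window (Plin2) against 7.15%. TCACNCCAC, written for a sterol regulatory element, was in none of the 9 and in 1.24% of all windows. These are matches of letters in a short window and say nothing of binding, and they were not set against the expression values in any test.

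In build mm10 the islet tables placed Srebf1 at chr11:60199089-60220604, Acly at chr11:100476352-100528000, Acaca at chr11:84195438-84401651, Fasn at chr11:120805958-120824547, Elovl6 at chr3:129532386-129638493, Thrsp at chr7:97412957-97417510 and Plin2 at chr4:86656565-86670059. All are annotated as protein-coding genes, and values are per gene, with no split by start site or transcript.

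Fatty acid genes are also read in other cell types that a preparation may hold, so the libraries were checked against marker genes. In islets the 10 beta cell markers took 39.5 to 50.0% of all FPKM after ND and 50.6 to 67.3% after HFD RNA, while 14 acinar markers, digestive enzyme genes of the surrounding pancreas, took 21.0 to 28.8% and 7.60 to 18.9%. Of 12 adipocyte markers, 9 stayed under 1 FPKM in every islet library, Lep was listed at 0 and Adipoq did not exceed 0.0443 FPKM, while Fabp4, Lpl and Cd36, which other cells also express, reached 61.5, 21.6 and 8.29 FPKM. The 8 trophectoderm markers summed to 63.8 to 68.6 FPKM in 8-cell pools and 3287 to 3574 in blastocysts, and 9 of 10 beta cell markers were listed at 0 in all embryo pools. In such bulk libraries, fewer cells of a type and less RNA per cell cannot be told apart. The number of reads per library was not in the tables. The ND replicate 1 islet library stood lowest across the genome, with 10861 entries at 1 FPKM or more against 11481 to 11975 in the other 5 libraries and a median ratio scaling factor of 0.740 against 0.938 to 1.18.

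The order of levels differed between embryo and islet. In islets Acly was by far the highest of the 10, with a mean of 205 FPKM over the 6 libraries, followed by Scd2 (27.0), Srebf1 (19.4), Fasn (9.67), Plin2 (7.93), Elovl6 (3.88), Acaca (3.41), Thrsp (2.35), Scd1 (1.77) and Cidea (0.0898). The ranges over libraries of neighbours in this order overlapped, except between Acly and Scd2 and between Scd1 and Cidea. Scd2 was nevertheless above Srebf1, and Srebf1 above Fasn, in each of the 6 libraries. In 8-cell pools Elovl6 (18.3), Acly (10.9) and Plin2 (10.3) were highest and Acaca (0.922) and Srebf1 (0.581) lowest. In blastocysts Plin2 led with a mean of 137 FPKM over 2 pools, ahead of Scd2 (54.8), Scd1 (52.0), Acly (31.8) and Elovl6 (31.3). Embryo and islet tables came from different library methods and were normalized separately, so only the order within each is read.

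Both stearoyl-CoA desaturases gave a plain case of this reordering. Scd2 was 13.5 to 20.0 times Scd1 in the 6 islet libraries, with no separation of ND and HFD. In 8-cell pools the ratio of Scd2 to Scd1 was 0.269 after ND and 0.688 after HFD RNA, and in blastocysts it was 1.15 and 0.965. The 2 genes lie near each other on chromosome 19 (mm10, chr19:44293676-44306862 for Scd2 and chr19:44394450-44407709 for Scd1) and are close paralogs, and how reads shared between them were counted is not given in the sources used here.

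The first comparison asked how the 10 genes differ between blastocysts and 8-cell embryos, with the pools of both injected RNAs at each stage. Of the 10 genes, 7 rose: the desaturases Scd1 and Scd2 and the droplet coat gene Plin2 by more than 10 times, the regulators Thrsp and Srebf1, and more modestly Acly and Elovl6. Fasn and Acaca, the pair that builds the palmitate chain, did not pass the test and had nearly equal means at both stages. Cidea did not pass either. In each of the 7 genes both blastocyst pools stood above both 8-cell pools, as in 46.4% of all 9603 genes tested.

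**Figure D1:**
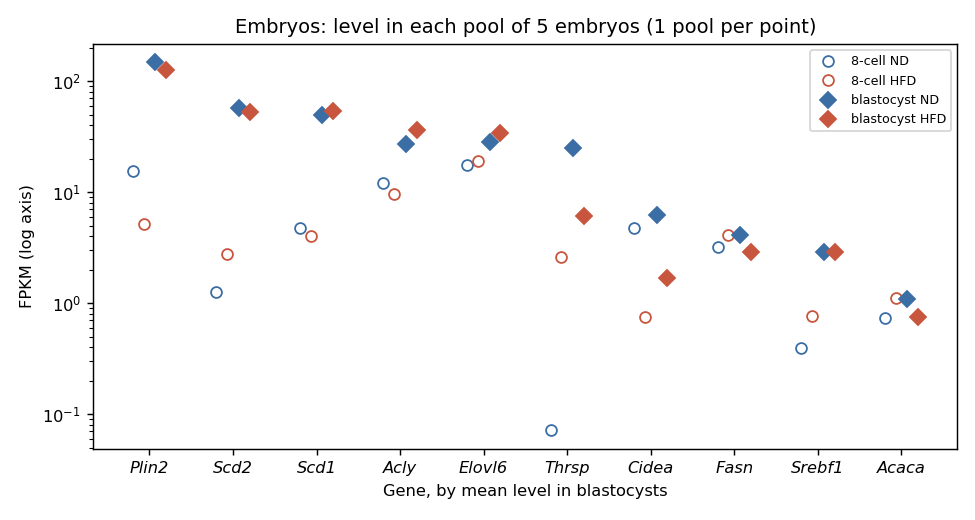
FPKM on a log axis of the 10 genes in the 4 embryo pools, 1 point per pool of 5 embryos, open circles for 8-cell embryos and filled diamonds for blastocysts, blue for ND and red for HFD sperm RNA. For Plin2, Scd2, Scd1, Acly, Elovl6, Thrsp and Srebf1 both diamonds lie above both circles, while the points of Fasn and Acaca lie close together and Cidea is ordered by injected RNA.

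Among the regulators, Srebf1 was 0.394 (ND) and 0.767 (HFD) FPKM in 8-cell pools and 2.87 in both blastocyst pools. This was a 4.94-fold higher mean in blastocysts, 1.30 on the log2(FPKM + 1) scale (SE 0.26, limma adjusted p = 0.00907). In the embryo tables Srebf1 was listed under a locus that it shared with Rai1, which overlaps it on chromosome 11. Thrsp went from 0.0715 (ND) and 2.61 (HFD) FPKM in 8-cell pools to 25.0 and 6.07 in blastocysts, 11.6-fold in the mean and 2.78 in log2 (SE 0.78, limma adjusted p = 0.0285). The 4 Thrsp pools thus spanned the widest ratio of any of the 10 genes, and its call was lost with a pseudocount of 0.1 or without a filter on low values.

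Among the enzymes, Acly was 12.1 and 9.66 FPKM in 8-cell pools (ND and HFD) and 27.4 and 36.3 in blastocysts, 2.92-fold in the mean and 1.46 in log2 (SE 0.27, limma adjusted p = 0.00701). Elovl6 went from 17.5 and 19.1 to 28.6 and 34.1 FPKM, 1.71-fold and 0.74 in log2 (SE 0.22, limma adjusted p = 0.0363). The call of Elovl6 was lost in 7 of 9 alternatives, over which its adjusted p ran from 0.0439 to 0.370. Scd1 was 4.72 and 4.03 FPKM in 8-cell pools and 49.7 and 54.3 in blastocysts, 11.9-fold and 3.30 in log2 (SE 0.24, limma adjusted p = 0.000682). Scd2 had the largest difference of the 10, from 1.27 and 2.78 to 57.2 and 52.4 FPKM, 27.1-fold and 4.25 in log2 (SE 0.30, limma adjusted p = 0.000610). Among the 10 genes, those of citrate cleavage and of desaturation were thus higher in blastocysts. Within these 10, a rise in lengthening rested on Elovl6 alone, whose call was mostly lost. Other elongation genes are given below.

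Fasn was 3.20 and 4.08 FPKM in 8-cell pools and 4.16 and 2.92 in blastocysts, with a log2 difference of −0.038 (SE 0.31, limma adjusted p = 0.928). Acaca was 0.733 and 1.11 FPKM in 8-cell pools and 1.09 and 0.745 in blastocysts, a difference of −0.0039 (SE 0.26, limma adjusted p = 0.991). The pools of the 2 stages overlapped for both genes. With 2 pools per stage the test does not show that their levels were equal.

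Plin2, the droplet coat, was 15.4 and 5.20 FPKM in 8-cell pools and 148 and 126 in blastocysts, 13.3-fold and 3.77 in log2 (SE 0.32, limma adjusted p = 0.000872). Both blastocyst pools were far above both 8-cell pools, and the 8-cell HFD pool was lowest. Cidea was 4.80 and 0.753 FPKM in 8-cell pools and 6.24 and 1.69 in blastocysts, a difference of 0.47 (limma adjusted p = 0.209). Its 2 HFD pools were the lowest of the 4, whatever the stage.

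**Figure D2:**
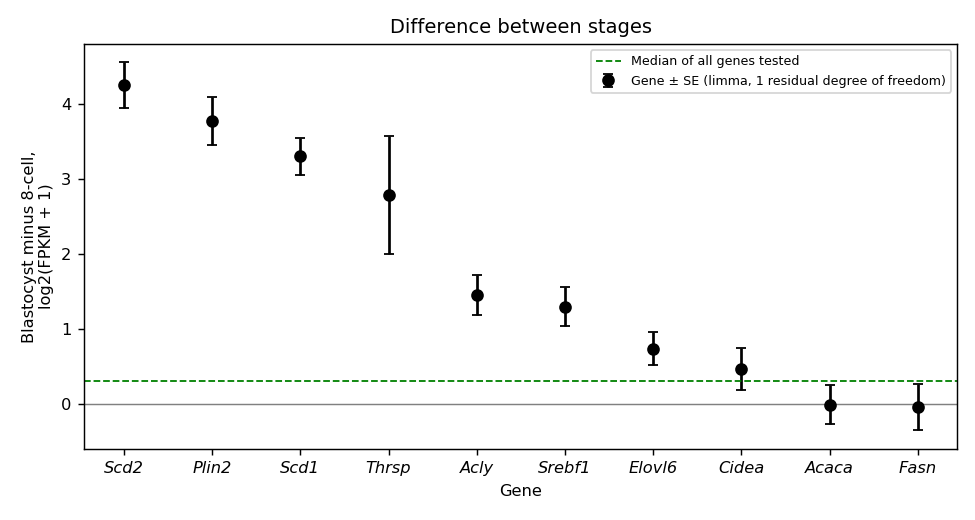
Blastocyst minus 8-cell difference on the log2(FPKM + 1) scale for each gene, with the SE of the additive limma model of stage and injected RNA (4 pools, 1 residual degree of freedom) as bars and the median of all 9603 genes tested (0.30) as a dashed line. The 7 genes from Scd2 (4.25) to Elovl6 (0.74) passed the test, and Cidea, Acaca and Fasn did not.

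The 7 of 10 genes called stand against 48.0% of all 9603 genes called between stages, and 31.9% called higher in blastocysts. The median difference of the 10 genes was 1.38 against 0.30 over all genes tested. The median over all genes was 0.01 after median ratio scaling, and under that scaling 6 of the 7 calls held, all but that of Elovl6 (log2 0.41). The trophectoderm markers given above moved with the stage, and their part in these differences was not tested.

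Other genes of lipid metabolism differed between stages in both directions. Of genes that supply acetyl-CoA, citrate and NADPH, 5 of 7 tested were called higher in blastocysts and none lower, among them the citrate carrier Slc25a1 (0.191 and 0.0427 FPKM in 8-cell pools, 6.09 and 3.81 in blastocysts) and the NADPH enzymes G6pdx (log2 difference 2.34), Me1 (2.13) and Pgd (1.14). Of other elongation, desaturation and activation genes, 8 of 13 were called higher and 3 lower. Elovl1 (2.58), which lengthens very long chains, and Elovl7 (2.33) were among the higher, while Acsl4, which activates polyunsaturated fatty acids, fell from 123 and 71.4 to 9.73 and 9.12 FPKM (−3.18, limma adjusted p = 0.000779).

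In triglyceride synthesis 7 of 10 genes tested were called higher and 2 lower. The 2 enzymes of the last step differed in opposite directions, Dgat1 with 2.39 and 2.42 FPKM in 8-cell pools and 16.9 and 11.3 in blastocysts (2.12), and Dgat2 with 13.8 and 7.00 and then 1.51 and 1.08 (−2.25). Of other droplet proteins, 4 of 6 were called higher, namely Bscl2 (1.67), Rab18 (1.19), Plin3 (1.18) and Hilpda (1.04). Among fatty acid binding genes Fabp3 had the largest difference of any gene named here, from 22.0 and 34.8 to 3260 and 4580 FPKM (7.07, limma adjusted p = 0.000114), followed by Fabp5 (3.41).

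Of lipolysis genes, 2 of 4 were called higher (Abhd5 and Mgll) and 1 lower (Pnpla3). Of the mitochondrial fatty acid synthesis genes, which form a separate pathway that makes the lipoic acid precursor, 5 of 6 were called higher. Of regulators, 5 of 13 were called higher and 2 lower, with Insig1 (2.48), which holds SREBP in the endoplasmic reticulum, and Srebf2 (1.86), the sterol-responsive relative of Srebf1, higher, and Nr1h3 (−3.04), the oxysterol receptor LXR alpha, lower. Of cholesterol synthesis genes, 13 of 19 were called higher and 1 lower, with Pmvk (2.90), which encodes phosphomevalonate kinase, among the higher. These counts stand beside 48.0% of all genes called in either direction and 31.9% called higher in blastocysts. After median ratio scaling 2349 of 9568 genes were called higher, and the lists were not counted under that scaling.

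The second comparison asked how embryos injected with HFD sperm RNA differed from those injected with ND sperm RNA. Cidea was lower after HFD RNA at both stages, Plin2 was lower at the 8-cell stage, and Thrsp was higher at the 8-cell stage and lower in blastocysts. The other 7 genes differed by less than 2-fold on the log2(FPKM + 1) scale at either stage, although Scd2 at the 8-cell stage (1.27 and 2.78 FPKM) passed 2-fold with a pseudocount of 0.1 (1.07 in log2). With 1 pool per group a stage by itself has no replicate check, and no gene passed the test over both stages.

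Cidea was 4.80 FPKM in the ND and 0.753 in the HFD pool of 8-cell embryos, a difference of −1.73 on the log2(FPKM + 1) scale. In blastocysts it was 6.24 and 1.69 FPKM, a difference of −1.43. Over both stages the difference was −1.58 (SE 0.28, limma adjusted p = 0.387), lower after HFD RNA in 2 of 2 pools. Its listed locus in the embryo tables, on chromosome 18, was shared with the antisense gene B430212C06Rik, and no source used here says that the embryo counts used strand, so the 2 genes cannot be told apart there. Both means were under 10 FPKM, the level set for counting differences at a single stage.

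Plin2 was 15.4 FPKM in the ND and 5.20 in the HFD pool of 8-cell embryos (−1.40), and 148 and 126 FPKM in blastocysts (−0.23). The HFD pool was lower both times, at 0.337 of the ND level at the 8-cell stage and 0.850 in blastocysts. Over both stages the difference was −0.82 (SE 0.32, limma adjusted p = 0.402).

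Thrsp was 0.0715 FPKM in the ND and 2.61 in the HFD pool of 8-cell embryos (1.75), and 25.0 and 6.07 FPKM in blastocysts (−1.88). The sign was opposite at the 2 stages, and whether the effect differs between stages was not tested, since each rests on 1 pool per group. Averaged over both stages the difference was −0.06 (SE 0.78, limma adjusted p = 0.980). The 8-cell ND value is close to 0 and the pseudocount of 1 FPKM understates its ratio to the HFD value.

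The enzymes from citrate to oleate stayed within smaller differences. Acly was −0.30 at the 8-cell stage and 0.39 in blastocysts, Acaca 0.29 and −0.26, Fasn 0.27 and −0.40, Elovl6 0.12 and 0.24, Scd1 −0.19 and 0.13, and Scd2 0.73 and −0.13. Srebf1 was 0.34 and −0.00049, with the same 2.87 FPKM in both blastocyst pools. Acly, Acaca, Fasn, Scd1 and Scd2 had opposite signs at the 2 stages, and Elovl6 was higher after HFD RNA at both.

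**Figure D3:**
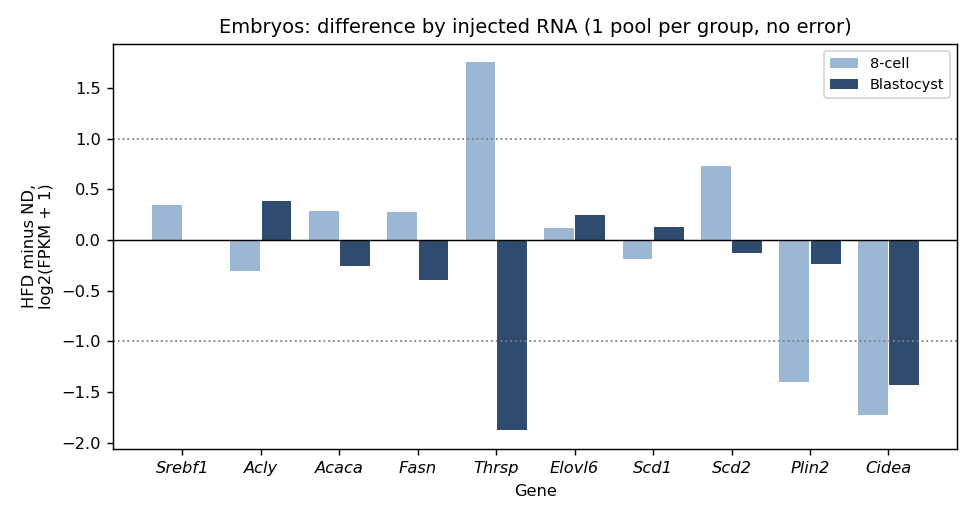
HFD minus ND difference on the log2(FPKM + 1) scale at the 8-cell stage (light bars) and in blastocysts (dark bars), from 1 pool per group and therefore without error bars, with dotted lines at 2-fold. Cidea lies beyond −1 at both stages, Plin2 at the 8-cell stage, and Thrsp at 1.75 and −1.88, while the other 7 genes stay between the lines.

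These members were read against all genes. The filter used the mean of both pools, so a gene could pass it through its higher pool alone. Plin2 at the 8-cell stage (15.4 and 5.20 FPKM) and Thrsp in blastocysts (25.0 and 6.07) reached a mean of 10 FPKM in that way. At the 8-cell stage Thrsp (0.0715 and 2.61) and Cidea (4.80 and 0.753) reached a mean of 1 FPKM likewise. The counts of 2-fold members are thus not independent of the filter. At the 8-cell stage 3 of the 10 had a mean of at least 10 FPKM, and 1 of them (Plin2) was at least 2-fold lower and none higher after HFD RNA, against 4.96% of 3687 genes lower, 1.95% higher and 6.92% different in either direction. In blastocysts 6 had that mean, and 1 (Thrsp) was 2-fold lower and none higher, against 4.91% of 4134 genes lower, 1.28% higher and 6.19% in either direction. At a mean of 1 FPKM or more, 8 members could be counted at the 8-cell stage, of which 1 was 2-fold higher (Thrsp) and 2 lower (Cidea and Plin2), against 2.67% of 8607 genes higher, 5.3% lower and 7.97% in either direction. In blastocysts 9 could be counted, of which none was 2-fold higher and 2 were lower (Thrsp and Cidea), against 1.96% of 9216 genes higher, 4.25% lower and 6.22% in either direction. With a mean of at least 1 FPKM at each stage, 0.44% of 7730 genes were 2-fold lower at both stages, as Cidea was. A further 0.103% were 2-fold higher at the 8-cell stage and 2-fold lower in blastocysts, as Thrsp was. Both patterns were taken from these 2 genes, so the shares do not measure how unusual either gene is. The median gene at a mean of 10 FPKM or more was itself lower after HFD RNA, by −0.32 at the 8-cell stage and −0.18 in blastocysts (−0.11 and −0.065 after median ratio scaling). Over both stages 0 of 9603 genes passed (0.0% called by limma), while 12.1% had an unadjusted p under 0.05, as did 2 of the 10 members, Cidea and Plin2.

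Among other lipid genes at a mean of 10 FPKM or more, cholesterol synthesis had most of the 2-fold differences. At the 8-cell stage 2 of 10 such genes were 2-fold lower after HFD RNA, against 4.96% of all genes at that mean. The 2 were Idi1 (48.9 and 20.0 FPKM in ND and HFD pools) and Acat2 (34.8 and 14.1). In blastocysts 5 of 16 were 2-fold lower, against 4.91% of all genes at that mean. Among the 5 were Fdft1 (82.6 and 29.3), Cyp51 (23.9 and 8.25), Msmo1 (65.6 and 28.6) and Idi1 (76.7 and 33.8). Of the 16, 15 were below 0, as were 65.0% of all genes at that mean. This list was not counted after median ratio scaling, under which fewer genes of the whole table were 2-fold lower. Insig1, whose transcription SREBP activates, was 5.76 and 19.6 FPKM at the 8-cell stage (1.61) and 85.4 and 48.8 in blastocysts (−0.79). Thrsp, Acaca, Fasn and Scd2 had the same order of signs. At the 8-cell stage Insig1 reached a mean of 10 FPKM through its HFD pool alone. Apart from Insig1 and these cholesterol genes, none of the listed genes at that mean was 2-fold apart on the log2(FPKM + 1) scale at either stage. Usf1 in blastocysts (20.1 and 9.84 FPKM) was among those just short of it (−0.96). The elongation list had 4 of 4 genes below 0 at each stage, against 77.3% of all genes at the 8-cell stage and 65.0% in blastocysts. Among them was Hsd17b12, the ketoacyl reductase of elongation. It was 26.1 and 13.1 FPKM at the 8-cell stage (−0.94) and 46.0 and 23.0 in blastocysts (−0.97). Idi1, lower after HFD RNA at both stages, had a difference of −1.21 over both (SE 0.21, limma adjusted p = 0.387) and did not pass the test.

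The third comparison asked whether islets of offspring from HFD RNA-injected zygotes differed from those of the ND group. All 9 genes that could be tested had a higher mean after HFD RNA, with the largest fold of means for Thrsp (1.74), Srebf1 (1.61) and Fasn (1.53), but none passed the test. For Fasn, Srebf1, Scd2 and Plin2 every HFD library lay above every ND library. Most genes of these libraries showed the same direction, and only Fasn kept its groups apart once libraries were brought to a common median. Cidea lay below the filter.

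**Figure D4:**
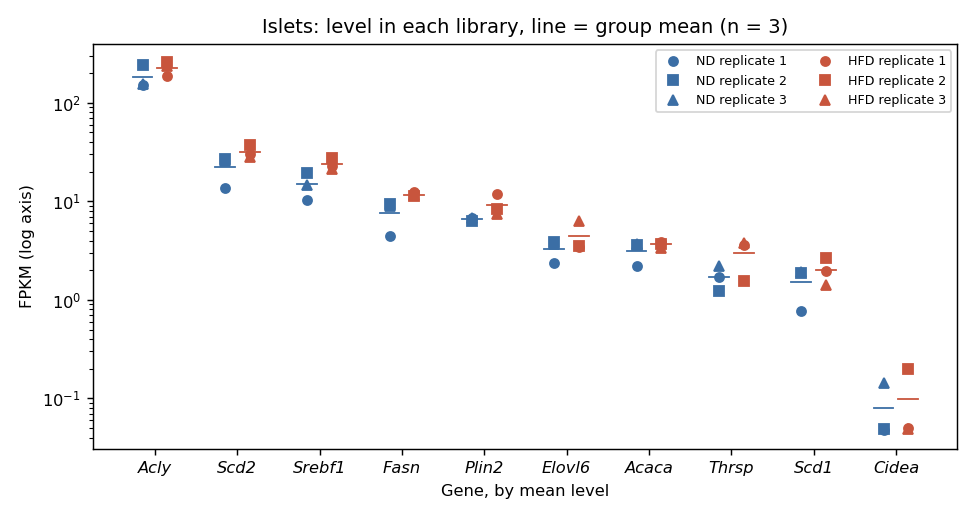
FPKM on a log axis of the 10 genes in the 6 islet libraries, blue for ND and red for HFD, with a symbol for each replicate number and short lines at the group means (n = 3). Red symbols all lie above blue ones for Scd2, Srebf1, Fasn and Plin2, and the ND replicate 1 circle is the lowest of the 6 in 7 of the 9 genes tested.

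Srebf1 was 10.4, 19.6 and 14.5 FPKM in the ND and 22.7, 27.8 and 21.1 in the HFD libraries, or 14.9 ± 4.59 against 23.9 ± 3.47 (SD, n = 3 each). The groups did not overlap. The difference was 0.68 on the log2(FPKM + 1) scale (SE 0.21, limma adjusted p = 0.117). It was higher in 3 of 3 HFD libraries than in any ND library, the largest difference of the 9 genes.

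Thrsp was 1.69, 1.22 and 2.22 FPKM after ND and 3.61, 1.54 and 3.80 after HFD RNA, or 1.71 ± 0.500 against 2.98 ± 1.25 (SD, n = 3 each). HFD replicate 2 lay within the ND range. The difference was 0.51 (SE 0.24, limma adjusted p = 0.164), and 0.81 without HFD replicate 2.

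Fasn was 4.41, 9.48 and 9.01 FPKM after ND and 12.3, 11.2 and 11.7 after HFD RNA, or 7.64 ± 2.80 against 11.7 ± 0.569 (SD, n = 3 each). The HFD libraries were close to each other and above all ND libraries, of which replicate 1 was far below the other 2. The difference was 0.62 (SE 0.23, limma adjusted p = 0.132), and 0.31 without ND replicate 1. After median ratio scaling Fasn was 5.96, 9.44 and 9.61 against 10.4, 10.3 and 10.2, still without overlap, with a difference of 0.30, or 0.10 without ND replicate 1. Within each library the ratio of Fasn to Acaca, which scaling does not alter, was 2.00, 2.65 and 2.47 after ND and 3.16, 2.99 and 3.43 after HFD RNA, so that all HFD libraries lay above all ND libraries, as did the ratio to Acaca of 13.8% of the 11736 other genes. The ratio of Acly to Acaca overlapped, with 67.8, 67.4 and 42.7 after ND and 48.6, 68.7 and 69.5 after HFD RNA.

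Acaca itself was 2.21, 3.58 and 3.65 FPKM after ND and 3.88, 3.73 and 3.40 after HFD RNA, with overlapping groups (log2 difference 0.19, SE 0.18, limma adjusted p = 0.403). Acly was 150, 242 and 156 FPKM after ND and 189, 257 and 237 after HFD RNA, again overlapping (0.34, SE 0.22, limma adjusted p = 0.267). With 1 library left out Acaca ran from 0.016 to 0.28 and Acly from 0.21 to 0.56. Acaca was lower and Acly almost equal after HFD RNA once libraries were scaled (−0.077 and −0.014). The first 2 enzymes of the pathway thus gave no direction that held under both scalings.

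Scd2 was 13.6, 26.9 and 25.7 FPKM after ND and 30.4, 36.9 and 28.5 after HFD RNA, or 22.1 ± 7.38 against 31.9 ± 4.38 (SD, n = 3 each). The groups did not overlap as deposited but did after scaling. The difference was 0.56 (SE 0.24, limma adjusted p = 0.146), and 0.26 without ND replicate 1. Scd1 was 0.765, 1.88 and 1.90 against 1.98, 2.68 and 1.42 FPKM (0.28, SE 0.22, limma adjusted p = 0.333) and Elovl6 was 2.39, 3.90 and 3.66 against 3.46, 3.49 and 6.39 (0.31, SE 0.22, limma adjusted p = 0.288). Scd1 was 0.045 without ND replicate 1 and Elovl6 0.071 without HFD replicate 3. Both overlapped, and HFD replicate 3 held the highest Elovl6 and the lowest Scd1 of its group.

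Plin2 was 6.75, 6.31 and 6.79 FPKM after ND and 11.9, 8.45 and 7.42 after HFD RNA, or 6.62 ± 0.264 against 9.25 ± 2.32 (SD, n = 3 each). The ND libraries were nearly equal and the HFD libraries spread above them. The difference was 0.40 (SE 0.18, limma adjusted p = 0.158), 0.23 without HFD replicate 1, 0.42 without ND replicate 1 and 0.09 after median ratio scaling, when the groups overlapped. Cidea was 0.0474, 0.0484 and 0.145 FPKM after ND and 0.0499, 0.199 and 0.0495 after HFD RNA. These values were 1, 1, 3, 1, 4 and 1 times the smallest step seen for this gene, to within 0.02, so they may stand for no more than a few fragments each and give no comparison.

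The count of members has to be read against the whole table. None of the 9 was called, against 0.0511% of 11737 genes by limma at an adjusted p under 0.05. All 9 differences were above 0, as were 93.8% of all genes, and 4 of 9 were higher at an unadjusted p under 0.05 (Srebf1, Fasn, Scd2 and Plin2) against 29.6%. Those 4 had all HFD above all ND libraries, against 41.5% of all genes, and after median ratio scaling 1 of 9 did (Fasn) against 7.98%. The shares of members thus lay near those of all genes as deposited. The median of the 9 differences was 0.40 and that of all genes 0.30, or 0.01 for all genes after median ratio scaling. ND replicate 1 gave the lowest value for 7 of the 9 genes, as it did for 75.2% of all genes.

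**Figure D5:**
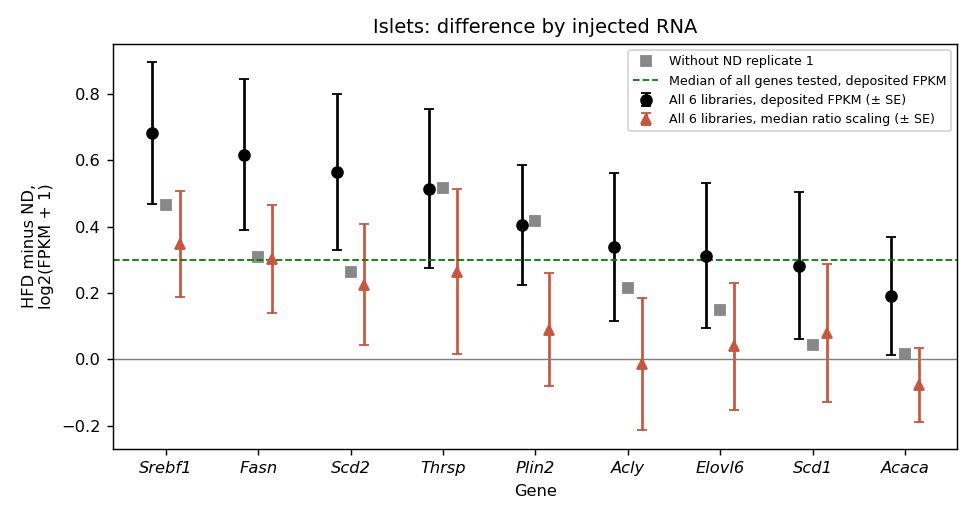
HFD minus ND difference in islets on the log2(FPKM + 1) scale for the 9 genes tested, from deposited FPKM (black circles), without ND replicate 1 (grey squares, no error shown) and after median ratio scaling (red triangles), with SE bars from limma and the median of all genes (0.30) as a dashed line. Scaled values lie from −0.077 (Acaca) to 0.35 (Srebf1), and leaving out ND replicate 1 lowers 7 of the 9 values and leaves Thrsp and Plin2 at 0.52 and 0.42.

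Several cell type markers moved with the islet groups. The summed acinar markers were 181429 to 247043 FPKM after ND and 78450 to 168164 after HFD RNA, with 13 of 14 lower after HFD RNA and 9 of them lower in every HFD library, and none called. All 8 endothelial markers were higher in every HFD library (sums of 101 to 157 against 198 to 260 FPKM), as were 6 of 8 stromal markers. This stands against 41.5% of all genes as deposited and 7.98% after median ratio scaling, under which the markers were not counted. All 10 beta cell markers were higher after HFD RNA, 4 of them in every HFD library, near the 93.8% and 41.5% of all genes. Only 1 of 6 alpha, delta and PP cell markers was higher (median −0.21), against 93.8% of all genes. Immune markers summed to 30.7 to 62.4 against 54.4 to 120 FPKM, ranges that overlap, and 0 of 7 tested were higher in every HFD library. Duct markers summed to 73.9 to 99.7 against 113 to 189 FPKM, with 2 of 5 tested higher in every HFD library. Both stand beside 41.5% of all genes. The part of these shifts in the differences of the 10 genes was not tested. The defining fat cell markers Adipoq, Plin1 and Lep were at or near 0 in all 6 libraries.

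Other lipid genes in islets behaved much as the members did. None was called in any of the 9 lists, and list medians lay between 0.24 (triglyceride synthesis, 10 of 11 higher) and 0.42 (supply of acetyl-CoA, citrate and NADPH, 7 of 7 higher), beside 0.30 over all genes. Of all genes 93.8% were higher. The lists were read from deposited FPKM, and no list differences were taken after median ratio scaling. The citrate carrier Slc25a1, which acts just before Acly, was 22.7 ± 6.68 FPKM after ND and 37.4 ± 4.72 after HFD RNA (SD, n = 3 each; log2 difference 0.73, limma adjusted p = 0.115). The glucose-responsive regulator Mlxipl was 47.7 ± 16.7 and 68.7 ± 17.5 (0.55, limma adjusted p = 0.169) and Insig1 26.0 ± 4.21 and 39.2 ± 9.42 (0.56, limma adjusted p = 0.127). The seipin gene Bscl2, needed for droplet formation, was 13.0 ± 2.83 and 21.2 ± 2.60 (0.67, limma adjusted p = 0.114), and Fabp4 28.3 ± 4.83 and 48.5 ± 11.4 (0.75, limma adjusted p = 0.114).

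All 15 tested genes of elongation, desaturation and activation and all 18 of cholesterol synthesis had differences above 0, as had 93.8% of all genes. Their medians were 0.38 and 0.34. Lipoprotein lipase (Lpl) was an exception among uptake genes, with 15.1 ± 5.38 and 14.9 ± 7.22 FPKM (−0.08). Its ranges of 9.42 to 20.1 and 7.27 to 21.6 FPKM overlapped almost fully.

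Over the 6 islet libraries the pathway gene most like each member, of 94 compared by Pearson's r of log2(FPKM + 1), was Fads2, the delta-6 desaturase, for Srebf1 (0.99) and Scd2 (0.95), and Usf2, which encodes an E-box-binding factor, for Fasn (0.99). Acaca (0.99) and Scd1 (0.92) were most like Oxsm, the mitochondrial ketoacyl synthase, and Acly was most like Lias (0.87), Thrsp like Elovl1 (0.93), Elovl6 like Insig2 (0.93) and Plin2 like Lipt2 (0.95). After median ratio scaling the same pairs had r of 0.96, 0.86, 0.97, 0.98, 0.84, 0.75, 0.93, 0.54 and 0.89 in the order named. These values are descriptions over 6 libraries that share the low level of ND replicate 1 across genes, and the pairs were picked as the highest of many.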

How the data were processed

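The tables deposited by the authors give FPKM for each gene of an embryo or islet library, as their column headers state. The submitters' processing notes name build mm10 and TopHat2 2.0.8b, and for the embryos also Cufflinks; a quantifier for the islets, the strand setting and any further normalization are not given in the sources used here. The 4 sperm RNA libraries were not used and the 2 bisulfite libraries were not analysed here. The members and all gene lists were chosen with earlier results of these data known.

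Groups came from the sample titles. For islets, limma 3.58.1 (R 4.3.3, trend in the prior variance, two-sided) was applied to log2(FPKM + 1) of the 11737 genes that reached 1 FPKM in 3 of the 6 libraries, at a Benjamini-Hochberg adjusted p under 0.05. The 9603 embryo genes that reached 1 FPKM in 2 of the 4 pools entered an additive limma model of stage and injected RNA with 1 residual degree of freedom, so that disagreement between pools across stages is its spread. At each stage alone, those averaging 10 FPKM or more were counted at 2-fold on the same scale, without a test. Symbols listed more than once and 10 embryo entries with a failed status were left out of the embryo join.

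Named genes are the 10 members and, from each list, up to 4 per comparison, first those called by size and then those of highest mean, plus the listed gene of highest r with each member in islets. A gene that this rule would name is not reported here. Alternatives were a pseudocount of 0.1, no filter, median ratio scaling, no trend, simpler models, the replicate block and leaving out libraries. On simulated data with 200 genes changed, the islet fit of 11737 genes recovered 65% of 2-fold changes, with 10 false calls. It recovered 96.5% of genes changed by 2 in log2, with 8 false calls. The stage fit of 9603 genes recovered 99.5% at 2 in log2 with 26 false calls, and 100% at 4 with 57. That simulation used the spread which the fit itself had estimated, and it held no effect of injected RNA. Its recovery therefore does not show the power of the test on the real pools. Each simulated gene varied by itself, without the low level that ND replicate 1 shares across genes. Depth in reads is unknown. The value of 1 fragment was 1.02 to 1.06 times that of ND replicate 1 in the other 5 islet libraries. It was sought only among low genes whose ratio to ND replicate 1 was already near 1. A larger difference in depth could not have shown there, so this does not settle whether islet depths are alike.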

Additional observations from a re-analysis of the deposited data

Results flagged for a closer look

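Thrsp was singled out because its differences between HFD and ND pools had opposite signs at the 2 embryo stages, 1.75 at the 8-cell stage and −1.88 in blastocysts on the log2(FPKM + 1) scale. Each value rests on 1 pool per group, and the difference between the stages was not tested.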

How the results depend on the processing

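In islets 6 genes of the whole table were called, and 3 with a pseudocount of 0.1, 0 without a filter on low values (limma, with 3904 at an unadjusted p under 0.05), 2 after median ratio scaling, 10 without the trend, and 0 to 373 when 1 library was left out (0 without ND replicate 1, with 2205 at an unadjusted p under 0.05, and 373 without ND replicate 3). With the replicate number as a block 590 were called; same-numbered libraries did not deviate together (correlations of −0.03, 0.04 and 0.03), so the numbers are not read as pairs. None of the 9 members was called in any of 99 values under these settings, of which 97 kept their direction; the exceptions were Acaca (−0.077) and Acly (−0.014) after scaling. Scaling together with leaving out ND replicate 1, chosen after seeing the data, gave Acaca −0.16, Acly −0.0082, Scd1 −0.099 and Elovl6 −0.031, and the other 5 stayed above 0 (Fasn 0.10), none called. Between stages 4609 genes were called (3059 higher, 1550 lower), and 4633 after scaling (2349 and 2284). By stage alone with 1 pool left out, where the lone pool of a stage is assumed to vary as the other stage does, 2333 to 3309 were called (2333 without blastocyst HFD, 2572 without blastocyst ND), and stage differences ran from −0.24 to 0.16 for Fasn, −0.15 to 0.13 for Acaca and −0.39 to 1.33 for Cidea (−0.25 without blastocyst ND), which passed only without 8-cell ND. For injected RNA over both stages Thrsp was 0.98 with a pseudocount of 0.1, and scaling gave Thrsp 0.10, Fasn 0.083 and Scd1 0.12; no gene was called in any alternative. Genes 2-fold apart numbered 255 at the 8-cell stage (72 higher, 183 lower) and 256 in blastocysts (53 and 203), and 686 and 573 with a mean of at least 1 FPKM; scaling gave 192 (114 and 78) and 189 (72 and 117). Apart from the changes that follow from fewer libraries or genes, the cause was not tested.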
